A study of Mus musculus with 8 samples.

Results

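The peroxisome proliferator-activated receptors (PPARs) and a set of their target genes were read in hypothalamus arrays of 2 genotypes, wild type and Nestin-Pex5-/-, with 4 mice of each. The set was chosen by gene symbol and holds 9 genes, namely the receptors Ppara, Ppard and Pparg and the targets Angptl4, Pdk4, Cpt1a, Ucp2, Acadl and Acadm. Of these, 8 have at least 1 probe set annotated to that gene alone, out of 18194 genes read in this way, and together they have 15 such probe sets. Ucp2, an uncoupling protein of the inner mitochondrial membrane, was not analysed here because no probe set was paired with it in the annotation used. RNA of untreated mice aged 10 weeks was read on Affymetrix expression arrays of the whole mouse genome, 1 for each mouse. In Nestin-Pex5-/- mice a floxed Pex5 gene, which encodes the import receptor for peroxisomal matrix proteins, is removed by a Cre recombinase under the Nestin promoter. The deletion therefore covers neurons, astrocytes and oligodendrocytes, which arise from neural progenitors, while microglia are not descended from them. The line was kept on a Swiss Webster background, and the sources used here do not give the sex of the mice or whether the wild type mice carry any allele of the cross. A bulk sample cannot tell fewer cells of a type from less RNA in each cell.

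PPARs are nuclear receptors that are activated by fatty acids and their derivatives. They bind DNA as heterodimers with retinoid X receptors (RXRs), at direct repeats of the hexamer AGGTCA with 1 base between the copies. PPAR alpha drives fatty acid oxidation during fasting, PPAR delta is the broadly expressed form and abundant in brain, and PPAR gamma directs adipocyte formation and lipid handling in macrophages. Very long chain acyl-CoAs, which peroxisomes shorten, are among the ligands proposed for PPAR alpha, and the question put to the data is whether the receptors and their targets differ in level between the genotypes.

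Promoter windows of the fatty acid oxidation genes are printed because these genes are classical PPAR targets and only 1 of them passed the test below. RefSeq promoter windows of GRCm38.p6 run from 250 bases before to 50 bases after the start that each is set on. They were found for 8 of the 9 genes, 10 windows in all, since Pparg has 3. Angptl4 is not among them. The windows of Cpt1a, Ppara and Pparg lie wholly within the gene spans given below, so they are not upstream of the whole gene. The hexamer AGGTCA was searched on both strands and is in capitals where it occurs, written TGACCT where it lies on the opposite strand. The windows belong to Acadl (chr1:66863260-66863559, minus strand), Acadm (chr3:153944594-153944893, minus strand) and Cpt1a (chr19:3323051-3323350, plus strand), each written 5′ to 3′ along the gene.
Acadl: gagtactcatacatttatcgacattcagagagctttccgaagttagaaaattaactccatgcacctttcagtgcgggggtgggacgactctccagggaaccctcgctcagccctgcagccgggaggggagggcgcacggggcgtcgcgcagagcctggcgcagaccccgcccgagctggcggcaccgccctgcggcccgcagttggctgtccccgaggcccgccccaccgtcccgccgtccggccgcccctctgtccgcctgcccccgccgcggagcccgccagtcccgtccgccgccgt
Acadm: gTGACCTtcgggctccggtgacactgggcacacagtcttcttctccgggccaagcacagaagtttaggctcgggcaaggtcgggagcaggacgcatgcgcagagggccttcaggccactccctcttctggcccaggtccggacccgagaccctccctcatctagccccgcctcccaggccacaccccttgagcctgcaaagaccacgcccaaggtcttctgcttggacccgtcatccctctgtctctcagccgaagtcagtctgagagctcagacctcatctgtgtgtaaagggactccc
Cpt1a: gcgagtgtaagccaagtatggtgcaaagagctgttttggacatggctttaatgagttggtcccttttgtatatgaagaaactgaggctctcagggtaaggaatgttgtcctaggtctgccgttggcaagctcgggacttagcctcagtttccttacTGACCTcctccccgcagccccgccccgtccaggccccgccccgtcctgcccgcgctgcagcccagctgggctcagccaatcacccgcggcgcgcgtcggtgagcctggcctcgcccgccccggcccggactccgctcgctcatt
The Acadl window holds no AGGTCA. The Acadm window holds 1 that begins 249 bases before its start, and the Cpt1a window holds 1 that begins 94 bases before the start it is set on. Besides these, the hexamer was in 2 of the 3 Pparg windows and in none of the windows of Ppara, Ppard, Pdk4 and Ucp2, while it occurs in 16.3% of all 32851 windows. A direct repeat of AGGTCA with 1 base between the copies was in no window of these genes, even with up to 2 mismatches, and 3.86% of all windows hold such a repeat. No match in these 300 bases says nothing of sites elsewhere in the genes.

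Of the 8 genes, 2 were higher in Nestin-Pex5-/- hypothalamus and none was lower. They are Angptl4, which rose 1.74-fold, and Acadl, which rose 1.24-fold. Over all genes 4.77% were called in either direction by limma at an adjusted p under 0.05, and 3.98% were called higher. Among all genes 0.791% were called lower. In both genes every Nestin-Pex5-/- array lay above every wild type array, and in 11.1% of all genes the genotypes were apart in one or the other direction. The same 2 genes were the ones with an unadjusted p under 0.05, against 16.9% of all genes. The median log2 fold change of the 8 genes was 0.09, beside -0.03 over all genes. The receptors, Pdk4, Cpt1a and Acadm did not pass.

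**Figure D1:**
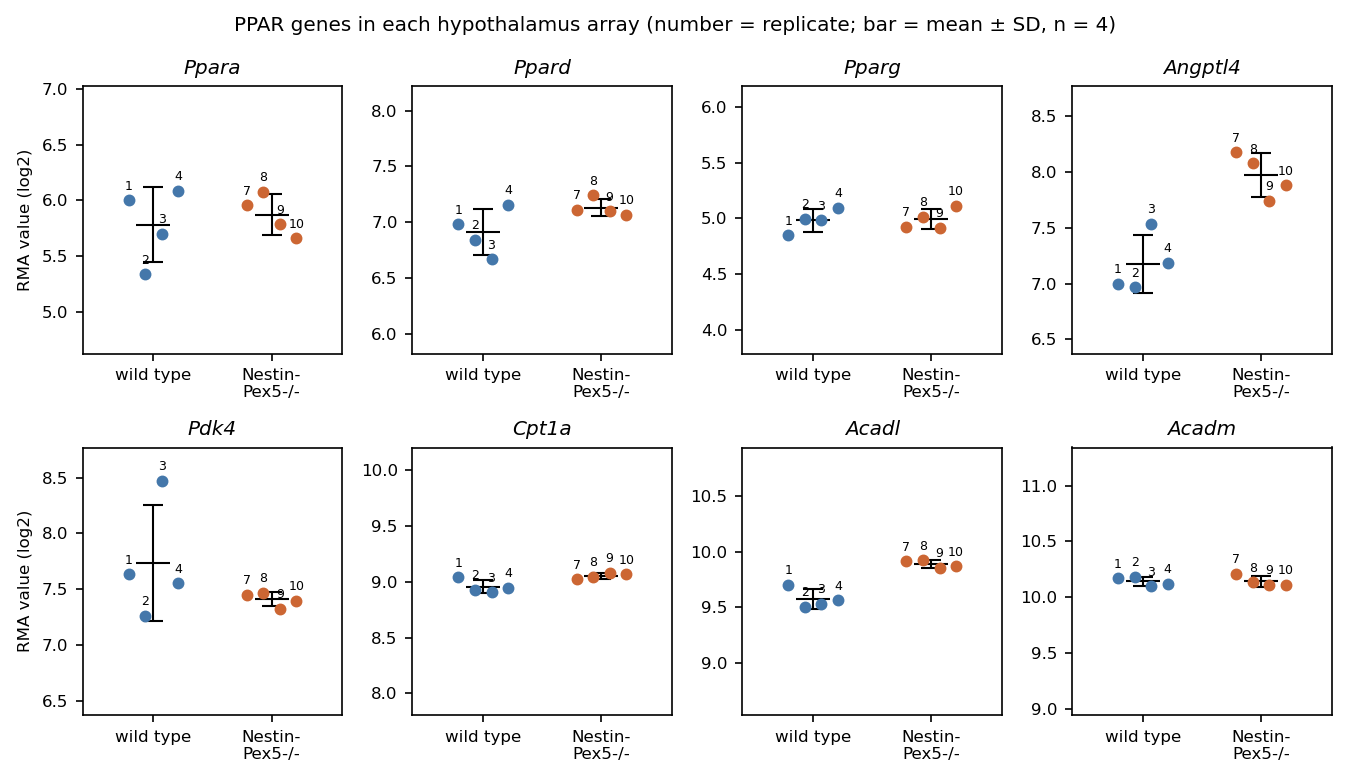
RMA value (log2) of the brightest probe set of each of the 8 genes in each hypothalamus array, 1 point for each mouse with its replicate number, with bars for the mean and SD (n = 4 for either genotype). Every panel spans the same range of 2.4 log2 units. In Angptl4 and Acadl all Nestin-Pex5-/- arrays lie above all wild type arrays, and in Pdk4 wild type replicate 3 stands at 8.47, above the other arrays.

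The targeted gene was read first. Pex5 was at 8.62, 8.68, 8.63 and 8.70 in wild type replicates 1 to 4 and at 8.76, 8.68, 8.58 and 8.66 in Nestin-Pex5-/- replicates 7 to 10 (log2), so its level does not tell the genotypes apart, and whether its probes lie in the deleted part is not given in the sources used here. Markers of hypothalamic neurons were present in all arrays, with a mean level of 9.72 to 10.11 in wild type and 9.59 to 10.20 in Nestin-Pex5-/- mice (10 of 11 listed genes measured). Some wild type arrays stand apart. In replicate 4 Ttr, the choroid plexus transthyretin, was at 10.51 against 14.47 to 14.59 in the others. In replicate 2 the adipocyte hormone Adipoq was at 7.80 against 3.64 to 4.27 in all other arrays. Genes induced by glucocorticoids were high in replicate 3, as described beside Pdk4.

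Among the receptors no difference passed. Ppard, on chromosome 17 from 28232754 to 28301469 (GRCm38.p6, as for every gene position given here), had the largest shift on a brightest probe set. It was at 6.98, 6.84, 6.67 and 7.15 in wild type replicates 1 to 4 and at 7.11, 7.24, 7.10 and 7.07 in Nestin-Pex5-/- replicates 7 to 10 (log2). All Nestin-Pex5-/- arrays lay above wild type replicates 1, 2 and 3, but wild type replicate 4 was in their midst. The fold was 1.16 (95% interval 0.997 to 1.36, adjusted p = 0.307 from limma). The dimmer probe set of Ppard was at 0.932-fold (limma over all single-gene probe sets, adjusted p = 0.724). A further probe set, annotated to Ppard and to 1810013A23Rik, was at 0.843-fold (limma over the whole array, adjusted p = 0.328), so the probe sets that can read Ppard point in different directions and none of them passed.

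Ppara, on chromosome 15 from 85734910 to 85806851, was read by 3 probe sets. On the brightest it was at 5.999, 5.34, 5.70 and 6.09 in wild type and at 5.96, 6.08, 5.79 and 5.66 in Nestin-Pex5-/- mice. The genotypes overlapped fully, at 1.06-fold (95% interval of the log2 fold change -0.27 to 0.45, adjusted p = 0.820 from limma). On the next probe set wild type was at 5.13 to 5.27 and Nestin-Pex5-/- at 4.82 to 5.12, and on the dimmest at 5.08 to 5.48 and 4.85 to 4.99. On both of these the wild type arrays lay above all Nestin-Pex5-/- arrays, at 0.859-fold and 0.822-fold. On the brightest probe sets the genotypes were apart, in one or the other direction, in 11.1% of all genes. An exact permutation test of the arrays gave p = 0.029 for each, the smallest it allows. Neither passed (limma over all single-gene probe sets, adjusted p = 0.190 for each), where the background is that 3.47% of these probe sets were called in either direction. The high end of the dimmest probe set is wild type replicate 4 at 5.48. Pparg, on chromosome 6 from 115360879 to 115490404, was at 4.85 to 5.10 in wild type and at 4.92 to 5.12 in Nestin-Pex5-/- mice, and its fold was 1.01 (95% interval 0.901 to 1.13, adjusted p = 0.955 from limma).

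All but 1 of the probe sets of the receptors lay below the median level of the probe sets on the array, which was 6.79, and Pparg was brighter than only 17.4% of the genes read. The share of background in such dim values is unknown. Differences of these probe sets on the log2 scale may therefore understate differences in RNA.

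**Figure D2:**
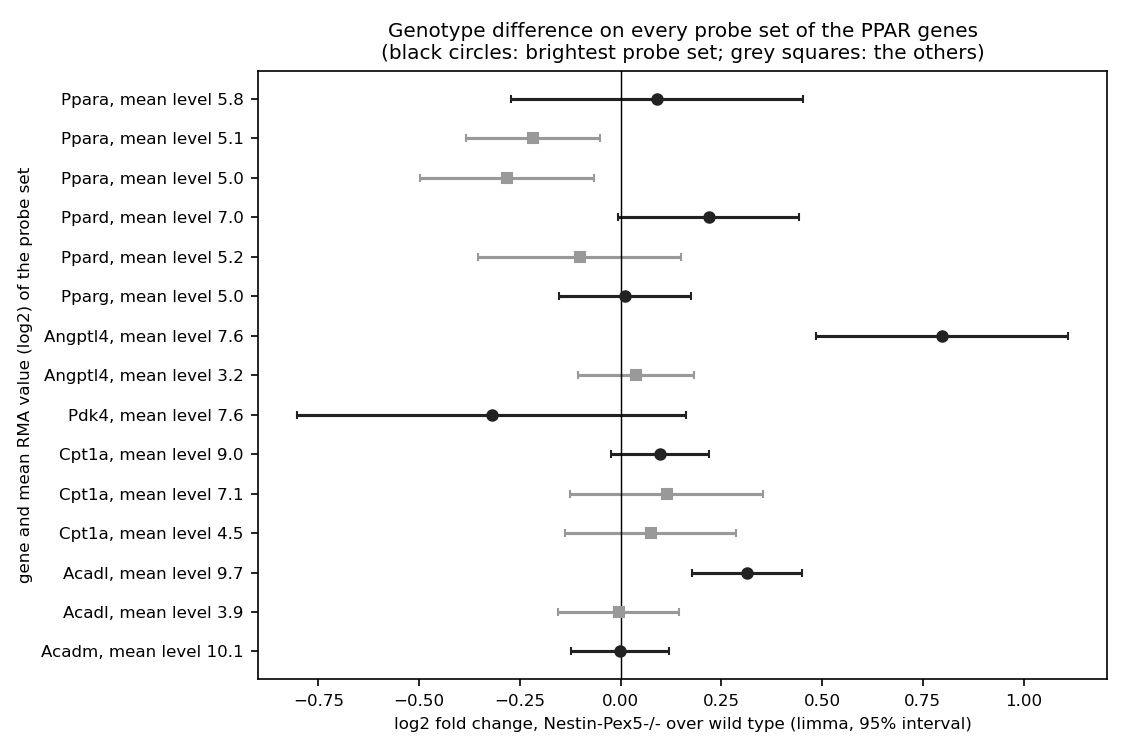
Genotype difference (Nestin-Pex5-/- minus wild type, log2, x axis) with its 95% interval from limma for each of the 15 probe sets of the 8 genes, labelled with the mean level of the probe set over the 8 arrays (n = 4 for each genotype). Black circles are the brightest probe set of a gene and grey squares the others. Angptl4 at 0.80 and Acadl at 0.31 lie clear of 0 on their brightest probe set, and the 2 dimmer probe sets of Ppara lie below 0.

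Angptl4 encodes a secreted inhibitor of lipoprotein lipase, which limits the uptake of fatty acids from lipoproteins, and lies on chromosome 17 from 33774900 to 33781575. Its level in wild type replicates 1 to 4 was 6.999, 6.97, 7.54 and 7.19 (log2). In Nestin-Pex5-/- replicates 7 to 10 it was 8.18, 8.08, 7.74 and 7.88. The lowest Nestin-Pex5-/- array, replicate 9, therefore lay above the highest wild type array, replicate 3. The means were 7.17 ± 0.26 and 7.97 ± 0.20 (SD, n = 4 each), a fold of 1.74 (95% interval 1.40 to 2.16, or 0.80 ± 0.14 (SE) in log2, adjusted p = 0.00858 from limma). The exact two-sided permutation test over the 70 assignments of the arrays gave p = 0.029, the smallest that 4 arrays against 4 allow. In order of log2 fold change Angptl4 ranked 314 among the 18194 genes. Without wild type replicate 3 the fold was 1.89 (adjusted p = 0.00210 from limma), and without any other 1 array it was 1.66 to 1.83.

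This rise rests on 1 probe set, whose name ends in _s_at and which can also bind related transcripts. The other probe set of Angptl4 was at 3.12 to 3.32 in wild type and at 3.15 to 3.28 in Nestin-Pex5-/- mice, near the lowest value of the whole table (2.91), and its fold was 1.03 (limma over all single-gene probe sets, adjusted p = 0.830). None of the 4 measured relatives of Angptl4 passed. Of these, Angptl6 was at 0.935-fold (adjusted p = 0.490) and Angptl1 at 0.924-fold (adjusted p = 0.670, both from limma).

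Markers of glia were higher in Nestin-Pex5-/- mice too. Their order across the arrays is given beside that of Angptl4, and with 4 arrays of each genotype it cannot settle the part of glia in its rise. Nestin-Pex5-/- replicate 7, the highest in Angptl4, had the lowest mean of its genotype in the microglia list (10.07) and the astrocyte list (11.39). Among wild type arrays replicate 2 was lowest in Angptl4 and in both lists. The highest wild type array was replicate 3 in Angptl4 and replicate 4 in both lists. Of 9 measured genes of microglia and macrophages 8 were higher, and their mean level was 8.16 to 8.41 in wild type and 10.07 to 10.44 in Nestin-Pex5-/- arrays. The complement genes C1qb and C1qa and the F4/80 gene Adgre1 led them, at 9.40-fold, 7.64-fold and 7.99-fold. Of 8 genes of astrocytes 3 were higher (Gfap 6.77-fold, Aqp4 2.15-fold, Sox9 1.41-fold), with a mean level of 10.77 to 11.02 against 11.39 to 11.55. Genes of the endothelium, where Angptl4 is also made, did not pass in any of 8 cases, and their mean level was 7.69 to 8.04 against 7.77 to 7.93. Genes of pericytes had a mean level of 8.60 to 8.87 against 8.34 to 8.54, with 1 of 6 lower (Vtn 0.724-fold). The 7 measured genes of oligodendrocytes had positive differences too, with a median log2 fold change of 0.45. None of them passed at an adjusted p under 0.05, but 6 had an unadjusted p under 0.05, beside 16.9% of all genes. Their mean level was 11.52 to 11.77 in wild type replicates 1, 2 and 3, 12.36 in wild type replicate 4 and 12.03 to 12.53 in Nestin-Pex5-/- arrays, so the genotypes overlapped through that 1 array. Genes of the meninges had a mean level of 9.10 to 9.65 against 8.40 to 9.46, and none of 7 passed. RMA gives no value of 0, and the part of these cell types in the rise of Angptl4 was not tested.

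The genes whose profile was closest to that of Angptl4 were found by centring each gene on its own wild type mean and taking the root mean square difference over the 8 arrays. They were Plce1 (0.135 on the log2 scale), Birc3 (0.148), Vsir (0.167), F9 (0.176) and Tnfaip2 (0.178). All 5 rose, by 1.64-fold to 1.86-fold. In Plce1, Birc3 and Tnfaip2 wild type replicate 3 was the highest wild type array, as in Angptl4. Genes chosen by likeness over these same arrays must resemble Angptl4 in such traits, so the resemblance is no separate evidence about it.

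Pdk4 encodes a kinase that switches off pyruvate dehydrogenase, so that fatty acids are burnt in place of glucose, and lies on chromosome 6 from 5483351 to 5496278. It was at 7.64, 7.26, 8.47 and 7.55 in wild type and at 7.45, 7.47, 7.33 and 7.40 in Nestin-Pex5-/- mice (log2). The Nestin-Pex5-/- arrays lay within the range of the wild type arrays and were much closer together (SD 0.065 against 0.52, n = 4 each). The fold was 0.801 (95% interval 0.574 to 1.12, adjusted p = 0.496 from limma). Wild type replicate 3 alone set this value, since without it the fold was 0.951 (adjusted p = 0.775 from limma). In that array Pdk4 was 1.99 times the geometric mean of its fellow wild type arrays, and Angptl4 was 1.40 times.

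Genes induced by glucocorticoids, a hormone signal that is also known to raise Pdk4 and Angptl4, were high in the same array. Of 11 such genes 9 had their highest wild type value in replicate 3, beside 15.99% of all genes. The kinase Sgk1 was 2.46 times, the transcription factor Zbtb16 2.36 times, the cell cycle inhibitor Cdkn1a 2.23 times, Tsc22d3 (GILZ) 1.71 times and the chaperone Fkbp5 1.58 times that geometric mean. These genes were picked from the list after their values were seen, and the list was chosen with earlier results of these data known. Between the genotypes, Lcn2 alone of the 11 passed (4.66-fold, adjusted p = 0.00707 from limma), a gene that also marks reactive astrocytes, and the median log2 fold change of the list was -0.11. Genes induced by hypoxia, a further signal known to raise Angptl4, had their highest wild type value in replicate 3 in 5 of 11 cases, and none passed between the genotypes. The part of either signal in the values of Pdk4 and Angptl4 was not tested.

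**Figure D3:**
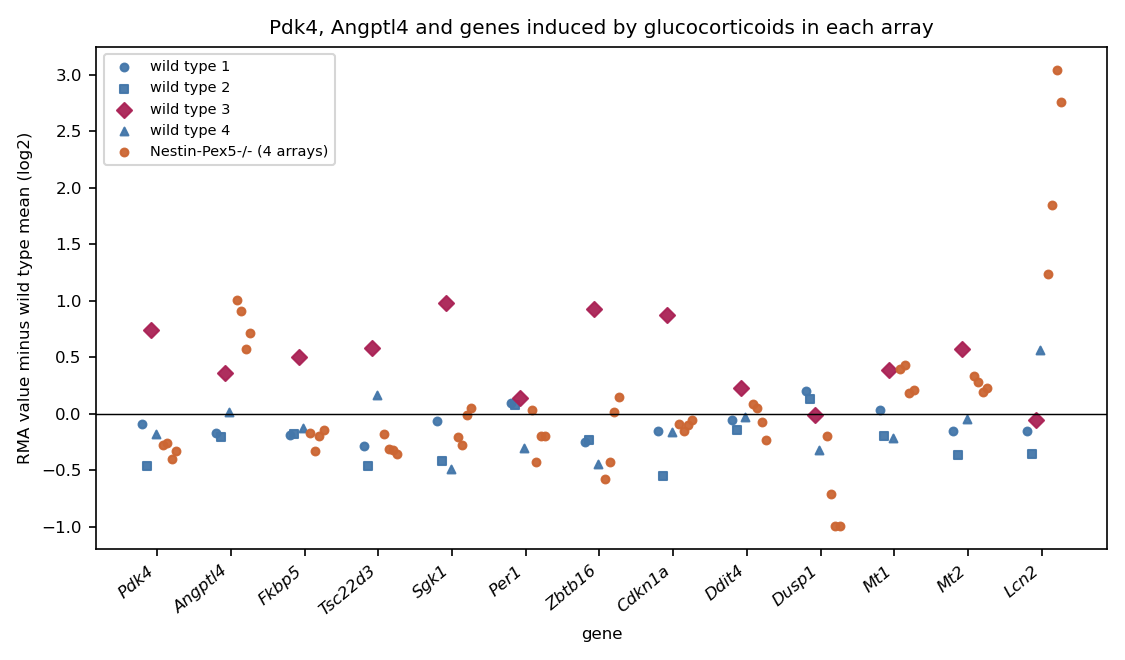
RMA value minus the wild type mean of the gene (log2, y axis) for Pdk4, Angptl4 and 11 genes induced by glucocorticoids, 1 point for each array, with wild type replicate 3 as a large diamond. The diamond lies above all other arrays in Pdk4 and in every gene of the list but Dusp1, Mt1 and Lcn2, whereas in Angptl4 all Nestin-Pex5-/- arrays lie above it.

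The other kinases, phosphatases and subunits of the pyruvate dehydrogenase complex did not pass in any of 8 cases (median log2 fold change -0.01). Pdp1, a phosphatase that reverses the action of the kinases, was at 1.08-fold and the catalytic subunit Pdha1 at 1.01-fold (adjusted p = 0.542 and 0.920 from limma). Of the uncoupling protein family 5 genes other than Ucp2 were measured and none passed. The brain carriers Slc25a14 and Slc25a27 were at 0.863-fold (adjusted p = 0.109 from limma) and 0.961-fold (adjusted p = 0.825). In Slc25a14 every Nestin-Pex5-/- array lay below every wild type array, and the genotypes were apart in either direction in 11.1% of all genes.

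Among the members that act in mitochondrial fatty acid oxidation Acadl alone passed. Acadl, the long chain acyl-CoA dehydrogenase that opens the oxidation cycle, lies on chromosome 1 from 66830839 to 66863309. It was at 9.71, 9.51, 9.53 and 9.57 in wild type and at 9.92, 9.93, 9.86 and 9.87 in Nestin-Pex5-/- mice (log2). All Nestin-Pex5-/- arrays lay above all wild type arrays, of which replicate 1 was the nearest. The means were 9.58 ± 0.088 and 9.89 ± 0.035 (SD, n = 4 each), a fold of 1.24 (95% interval 1.13 to 1.36, or 0.31 ± 0.060 (SE) in log2, adjusted p = 0.0148 from limma). The permutation test gave its smallest p, 0.029. The call of Acadl stands near the threshold. It was lost without wild type replicate 2 or Nestin-Pex5-/- replicate 8 (adjusted p = 0.0534 from limma in both cases) and after scaling to Actb (1.14-fold, adjusted p = 0.103). Its other probe set lay at 3.84 to 4.07 in all arrays and its fold was 0.997 (limma over all single-gene probe sets, adjusted p = 0.984).

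Acadm, the medium chain acyl-CoA dehydrogenase, on chromosome 3 from 153922353 to 153944643, had almost the same mean in both genotypes. It was at 10.10 to 10.18 in wild type and at 10.11 to 10.21 in Nestin-Pex5-/- mice, a fold of 0.999 (95% interval 0.921 to 1.08, adjusted p = 0.993 from limma). Cpt1a, the carnitine palmitoyltransferase that admits long chain fatty acids to mitochondria, lies on chromosome 19 from 3322326 to 3385735. It was at 9.04, 8.93, 8.91 and 8.95 in wild type and at 9.02, 9.05, 9.08 and 9.07 in Nestin-Pex5-/- mice. Wild type replicate 1 lay among the Nestin-Pex5-/- arrays and the other wild type arrays below them. The fold was 1.07 (95% interval 0.986 to 1.16, adjusted p = 0.394 from limma), and the dimmer probe sets gave 1.08-fold and 1.05-fold. Whether the difference of Acadl is larger than that of Acadm was not tested.

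The rest of the pathway was read from lists chosen by function, with earlier results of these data known. Together with the lists of glucocorticoid and hypoxia genes they hold 151 measured genes other than the 9, of which 7 were called, 5 higher (Fabp7, Acsl5, Plin2, Abca1 and Lcn2) and 2 lower (Cidea and Ivd). This is 4.64%, beside 4.77% of all genes. Without those 2 lists, to which Lcn2 belongs, 6 of 129 were called, or 4.65%, with 4 higher. At an unadjusted p under 0.05 stood 34 of the 151, or 22.5%, and 28 of the 129, or 21.7%, beside 16.9% of all genes. With wild type replicate 4 left out 12 of the 151 were called higher, and without Nestin-Pex5-/- replicate 10 only 3. The share of all genes called higher moved in the same direction, from 3.98% to 5.94% and 3.03%. None was called lower without wild type replicate 1 or Nestin-Pex5-/- replicate 8, 9 or 10, and 1 without wild type replicate 2 or 3. The median log2 fold change of the 151 was -0.04, close to the -0.03 of all genes.

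**Figure D4:**
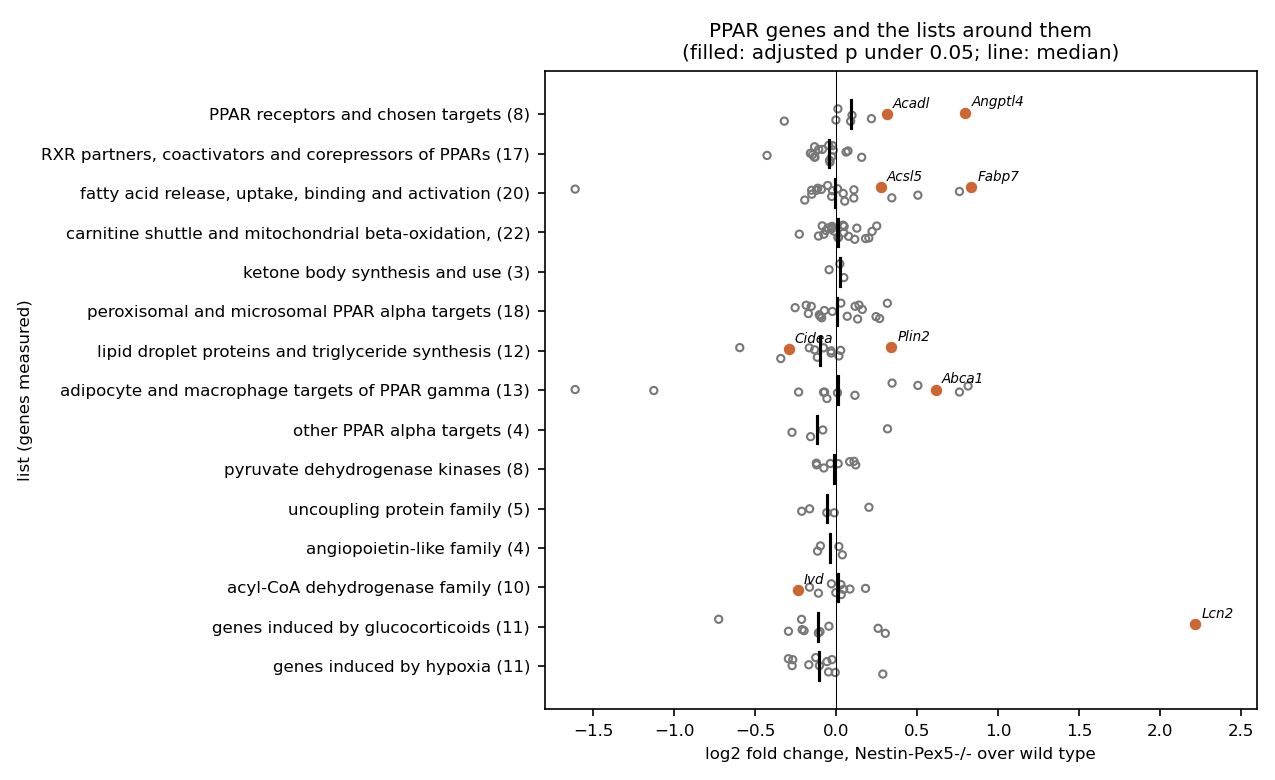
Genotype difference (Nestin-Pex5-/- minus wild type, log2, x axis) for the measured genes of each list (y axis, number of genes in brackets), 1 point for each gene on its brightest probe set, filled where limma's adjusted p is under 0.05, and a line at the list's median. A gene in more than 1 list is drawn in each. The medians lie between -0.12 and 0.09, and few genes of any list are filled.

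The partners and coregulators of PPARs did not pass in any of 17 measured cases, and none had an unadjusted p under 0.05. Ncoa2 and Ncoa1, coactivators of nuclear receptors, were at 0.985-fold (adjusted p = 0.864 from limma) and 0.943-fold (adjusted p = 0.530). Among the RXRs, named here outside the rule, Rxra was at 0.928-fold, Rxrb at 0.972-fold and Rxrg at 0.744-fold (adjusted p = 0.544, 0.749 and 0.315 from limma). Of the peroxisomal and microsomal targets of PPAR alpha none of 18 passed, and 6 had an unadjusted p under 0.05. Abcd3, a peroxisomal fatty acid transporter, was at 1.05-fold and Ech1, an isomerase of unsaturated fatty acids, at 1.08-fold (adjusted p = 0.578 and 0.423 from limma).

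None of 22 further genes of the carnitine shuttle and mitochondrial beta-oxidation passed, but 5 had an unadjusted p under 0.05, beside 16.9% of all genes. Of these Hadha (1.19-fold), Eci2 (1.15-fold), Acads (1.13-fold) and Hadh were higher, as Acadl was, and Acaa2 (0.854-fold) was lower. Hadha and Eci2 were the nearest to the threshold (adjusted p = 0.0808 and 0.0762 from limma). Hadhb and Hadh, which act in the later steps of the cycle, were at 1.05-fold (adjusted p = 0.544 from limma) and 1.17-fold (adjusted p = 0.293). Among 10 other acyl-CoA dehydrogenases Ivd, which acts in leucine breakdown and not on fatty acids, was lower at 0.848-fold (adjusted p = 0.0428 from limma). This call was lost in 7 of the 8 fits without 1 array (adjusted p up to 0.137 from limma), and held without wild type replicate 4. The ketone body enzymes Oxct1 and Acat1 were at 1.02-fold and 0.970-fold and did not pass, and neither did the remaining gene of that list.

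Fatty acid binding and activation held 2 rises among 20 genes. Fabp7, the brain lipid binding protein of astrocytes and radial glia, rose from 11.06 to 11.32 in the wild type arrays to 11.82 to 12.14 in the Nestin-Pex5-/- arrays, 1.78-fold (adjusted p = 2.9e-04 from limma). Acsl5, an acyl-CoA synthetase, rose from 9.48 to 9.65 to 9.84 to 9.88, 1.21-fold (adjusted p = 0.0188 from limma), a call that was lost in 5 of the 8 fits without 1 array. Of 12 lipid droplet genes Plin2, the droplet coat protein perilipin 2, rose 1.27-fold (adjusted p = 0.0174 from limma, up to 0.0618 without 1 array). Cidea, which promotes droplet growth, was at 0.816-fold (adjusted p = 0.0464 from limma), and its call was lost in 6 of the 8 fits without 1 array.

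Of 13 measured adipocyte and macrophage targets of PPAR gamma Abca1 alone passed with all arrays. This exporter of cholesterol, which also answers to liver X receptors, rose 1.53-fold (adjusted p = 4.8e-04 from limma). The values of Fabp4, Adipoq and Cd36 turned on wild type replicate 2. There Fabp4, the fatty acid binding protein of adipocytes, was at 9.22 against 3.72 to 5.65 in the other arrays, and the fatty acid receptor Cd36 at 7.12 against 4.86 to 6.44. Adipoq, as given above, stood high in the same array, while Pparg itself was at 4.999 there and within the range of the others. With all arrays Fabp4 was at 0.327-fold and Adipoq at 0.458-fold, and neither passed (adjusted p = 0.448 and 0.508 from limma). Without wild type replicate 2 Fabp4 was at 0.720-fold (adjusted p = 0.607 from limma) and Adipoq at 0.887-fold (adjusted p = 0.612). Cd36 was at 1.42-fold with all arrays (adjusted p = 0.604 from limma) and passed without wild type replicate 2, at 2.03-fold (adjusted p = 0.00548 from limma). Both values are of its brightest probe set. With the mean of its probe sets and all arrays Cd36 was at 1.19-fold (adjusted p = 0.700 from limma). All Nestin-Pex5-/- arrays of Cd36 (5.85 to 6.44) lay above wild type replicates 1, 3 and 4 (4.86 to 5.19) and below replicate 2. Cd36 is also expressed by microglia, whose markers rose, and their part in its level was not tested. The remaining targets of PPAR alpha, 4 in number, did not pass, with Txnip, a regulator of glucose uptake, at 1.25-fold and the liver factor Creb3l3 at 0.944-fold (adjusted p = 0.139 and 0.794 from limma).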

How the data were processed

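Each of 8 mice aged 10 weeks, 4 per genotype, gave 1 hypothalamus array. Scans were summarised to log2 values by the authors with RMA (background correction, quantile normalization and summary of the probes of a probe set), and the deposited log2 table holds 45101 probe sets. The version of RMA, the probe set definitions and any filter are not given in the sources used here. Precision is limited by the number of arrays. Genotypes were read from the labels, and no column was left without a sample.

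Probe sets were named from the platform annotation of 2016: 34958 had 1 gene, 932 several and 9211 none, and 34754 symbols were brought to RefSeq on GRCm38.p6. Each gene was read from its brightest probe set over the 8 arrays, unfiltered. The comparison of genotypes used limma (3.58.1, under R 4.3.3; lmFit and eBayes, two-sided, Benjamini-Hochberg over 18194 genes), checked on simulated data. The 95% intervals are those of the fit. Single genes also had an exact permutation test. Figures used matplotlib 3.10.9.

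The members and lists were chosen with earlier results of these data known. Named genes are all members, up to 3 called genes of each list with the largest log2 fold change (or, where none was called, up to 2 of the highest level), the 5 genes most like the leading called member, and shared probe sets. Genes named outside this rule were chosen after their values were seen. Of the 12 cell type lists, those of neurons (0 of 7 called), choroid plexus (0 of 6), red blood cells (0 of 2) and adipocytes (0 of 3) held no call, and that of ependyma and tanycytes held 1 of 6 (Rarres2, 0.728-fold).

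Alternatives left out dim probe sets (mean below 6.79) or _s_at and _x_at probe sets, took the mean or the smallest p of a gene's probe sets, scaled the arrays to Actb or to 8 measured of 10 reference genes, quantile-normalized again, used trend and robust settings or array weights, or left out 1 array. The fits of Fabp4, Adipoq and Cd36 under these settings, and the pathway count without the glucocorticoid and hypoxia lists, were chosen after seeing the data.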

Additional observations from a re-analysis of the deposited data

Results flagged for a closer look

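Among 132 groups of 4 arrays, namely both genotypes of each member probe set and of most other genes the text describes, 13 had 1 array far from the rest, where chance gives about 1 group in 20. Some of these genes were named because an array stood apart in them, so the number is not to be read against chance. Of the members, the dimmest probe set of Ppara was at 5.48 in wild type replicate 4 and at 5.08 to 5.09 in the other wild type arrays (log2).

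Wild type replicate 2 was far above the others in Adipoq (7.80 against 3.75 to 4.27) and Cd36 (7.12 against 4.86 to 5.19), and below them in C1qb (8.37 against 8.72 to 8.74). Wild type replicate 3 was far above the others in Fkbp5 (9.40 against 8.71 to 8.78), Zbtb16 (8.98 against 7.61 to 7.81) and Slc25a14 (10.27 against 10.19 to 10.21). It was below them in Sox9 (7.67 against 7.97 to 8.01) and Rarres2 (8.34 against 8.69 to 8.71). Wild type replicate 4 was far below the others in Ttr (10.51 against 14.47 to 14.59), and above them in Aqp4 (11.69 against 11.14 to 11.17) and Pgk1 (13.01 against 12.89 to 12.90). In Rxra Nestin-Pex5-/- replicate 7 was at 7.79, against 7.61 to 7.62 in the other Nestin-Pex5-/- arrays.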

How the results depend on the processing

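No paired analysis was possible because the genotypes share no replicate number. Angptl4 kept its direction and its call under 16 of 17 alternatives, and was at a log2 fold change of 0.038 when _s_at and _x_at probe sets were left out, which removes its bright probe set (0.73 to 0.92 without 1 array). Acadl lost its call with the mean of its probe sets (0.15), which includes a dim one, and when scaled to Actb (0.19), and ranged from 0.29 to 0.36 without 1 array. The number of members called higher was 1 under each of these 3 settings and 1 to 2 without 1 array, and that of members called lower was 0 throughout. Members that did not pass changed sign under some settings without passing. Ppara was at -0.14 with the mean of probe sets, -0.22 with the probe set of smallest p, -0.038 when scaled to Actb and -0.058 to 0.19 without 1 array. Pparg was at -0.12 and Cpt1a at -0.029 when scaled to Actb, Acadm at 0.046 when scaled to the reference genes, and Pparg at -0.034 to 0.049 and Acadm at -0.025 to 0.012 without 1 array. Scaling to Actb moved the median log2 fold change of all genes from -0.03 to -0.16. Ppara and Pparg have no value when dim probe sets are left out. Pathway genes called higher, 5 as reported, numbered 3 when scaled to Actb, 8 when scaled to the reference genes, 17 with array weights and 3 to 12 without 1 array, where all genes called higher, 724 as reported, numbered 540, 928, 1351 and 543 to 1080. Those called lower, 2 as reported, numbered 13, 0 and 7 under the same settings, 1 with trend and robust settings and 0 to 2 without 1 array, where all genes called lower, 144 as reported, numbered 1086, 78, 699, 180 and 46 to 331. Cd36 passed in 1 of 16 alternatives that gave a value, the fit without wild type replicate 2 (log2 fold change 1.02), and Fabp4 and Adipoq passed in none of theirs. The causes were not tested.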
